A study of Mus musculus with 22 samples.

Results

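The Polycomb complex genes described here were 10 genes that encode subunits of Polycomb repressive complex 1 (PRC1: Bmi1, Ring1, Rnf2, Cbx2, Phc1 and Phc2) and of Polycomb repressive complex 2 (PRC2: Ezh1, Ezh2, Eed and Suz12). Their chromatin was measured by ATAC-seq. In this assay the transposase Tn5 cuts open DNA and tags it for sequencing, so that the read count over a peak measures how accessible that stretch is. These are bulk samples, in which a peak that is open in fewer cells and a peak that is less open in each cell cannot be told apart. A peak was assigned to a gene when it overlapped the gene body or the 2 kb on either side in the mouse build mm10, and 20 of the 96049 peaks in the table did. All 20 also lay within the gene bodies themselves.

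Polycomb proteins keep genes silent through marks on histones. PRC2 methylates lysine 27 of histone H3: Ezh2 or Ezh1 is the catalytic subunit, Eed binds the methylated lysine and Suz12 holds the core together. PRC1 ubiquitinates histone H2A through the E3 ligases Rnf2 (RING1B) and Ring1 (RING1A), each paired with a partner such as Bmi1. Cbx2 reads the PRC2 mark through its chromodomain, and the polyhomeotic proteins Phc1 and Phc2 polymerise and compact chromatin. In the mouse germ line both complexes hold somatic and lineage genes silent in spermatogonia, and loss of either complex disturbs spermatogenesis.

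The 22 libraries came from FACS-purified C57BL/6 testis germ cells of mice aged 8 to 12 weeks. Spermatogonia were sorted on day 7 after tamoxifen, which activates the CreER recombinase carried at the Tert locus, with a Rosa26 tdTomato reporter that Cre switches on. There were 3 TERT-deleted and 3 control libraries of MCAM-high, KIT-negative undifferentiated spermatogonia, 3 TERT-deleted and 2 control libraries of MCAM-medium undifferentiated spermatogonia, and 3 TERT-deleted and 3 control libraries of KIT-positive differentiating spermatogonia. MCAM is a surface adhesion molecule and KIT is the receptor that differentiating spermatogonia gain. The titles separate TERT-deleted from TERT-heterozygous control mice, whereas the genotype entry, TertCreER/+:Rosalsl-Tdtomato/+, is identical for both, so both carry CreER at one Tert allele and the second allele of the deleted mice is known from the titles alone. The other 5 libraries came from spermatocytes or round spermatids of TertTdtomato/+ mice. For 4 of these 5 the title and the library name disagree on the cell type, so they were kept as 1 group of later germ cells. The tamoxifen entry covers the later libraries too, but these have no day. Library names number the control and the deleted spermatogonial libraries across populations, but do not say that a number is a mouse. The library names of all 5 later libraries begin with TERT-TdTom-Het1, followed by a cell type, a letter and a last tag that differs for 1 of them. They may thus be aliquots of 1 animal, and their SDs and n = 5 may describe technical spread alone. No label gives each replicate its own mouse, and p-values therefore reflect only how far these libraries vary, which may be technical.

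Depth was 922085 to 3358377 counts in peaks for a library, and no pair of replicates agreed within counting noise (chi-square per degree of freedom of 1.78 or more). The Kit promoter peak averaged 66.3 ± 20.7 CPM in deleted and 61.5 ± 5.71 CPM in control KIT-positive libraries (SD, n = 3 each), against 32.6 ± 3.43 CPM in deleted and 30.6 ± 6.18 CPM in control MCAM-high libraries (SD, n = 3 each). CPM is the count scaled to the library's total in peaks, here after TMM, a trimmed-mean correction for library composition. The 6 differentiating markers, Kit among them, summed higher in KIT-positive than in MCAM-high libraries (deleted 261 to 280 against 187 to 225 CPM, control 255 to 319 against 170 to 194 CPM). The undifferentiated list, with 9 of 10 genes carrying a peak, did not separate them the other way. It was higher in deleted KIT-positive libraries (306 to 407 against 248 to 267 CPM) and overlapped in control ones (271 to 419 against 311 to 317 CPM). The Tert gene had a peak in every group, which does not check the deletion: it averaged 15.1 ± 1.33 CPM in deleted and 21.7 ± 7.95 CPM in control KIT-positive libraries (SD, n = 3 each), and the deleted exons are not known from the labels. Later germ cells stood apart by their own markers. The summed level of 7 spermatocyte and spermatid markers with a peak, of 9 listed, was 242 to 263 CPM in later germ cells, against 64.4 to 110 CPM in the 17 spermatogonial libraries. Prm1 and Acrv1, which define spermatids, averaged 20.9 ± 5.71 and 25.3 ± 2.18 CPM in later germ cells (SD, n = 5) and no more than 2.67 CPM in any spermatogonial group. The Sertoli list, with 4 of 6 genes carrying a peak, summed to 37.3 to 45.1 CPM in later germ cells and 47.0 to 93.5 CPM in spermatogonia. Its part in any result was not tested. Control KIT-positive replicate 3 also differed from its group: 73.9% of its nonzero counts were even numbers, the highest share of all libraries, and it gave the highest value of its group for 9 of the 10 Polycomb promoters. Deleted MCAM-medium replicate 3 (73.7%) and deleted KIT-positive replicate 1 (70.5%) had similar shares. The latter gave the highest value of its group for 6 of the 10 promoters.

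Each of the 10 genes had 1 peak over its main start. For 9 of them the peak overlapped the RefSeq promoter window, which spans 250 bases before to 50 bases after the transcription start. Cbx2 had no promoter window, and its strand was not given. Its peak was sought within 1 kb of either annotated end and overlapped the lower-coordinate end, which is taken here as the start. These 10 are called promoter peaks below. Ring1, Ezh1, Ezh2, Eed, Suz12 and Cbx2 had no other peak. Bmi1 and Phc1 had 1 more each, Rnf2 had 2 more and Phc2 had 6 more, which makes 10 peaks away from the main promoter. The Ezh2 promoter peak also overlaps the lncRNA gene F830010H11Rik, the Cbx2 peak overlaps the lncRNA gene Gm35829, and the third Phc2 start shares its peak with Gm33712, so counts there cannot be assigned to one gene.

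The promoter windows of 5 of these genes carry the results that follow and are printed here from RefSeq, assembly GRCm38.p6, 5′ to 3′ on the gene's strand. Bmi1, Suz12 and Eed are 3 of the 4 promoters that rose in KIT-positive cells of both genotypes (the other, Ezh1, held none of the motifs searched), Ezh2 was most open in later germ cells, and Phc2 has a first start that fell in later germ cells, while the third start did not pass the test there. The windows lie at chr2:18676768-18677067 (Bmi1, plus strand), chr11:79992856-79993155 (Suz12, plus strand), chr7:89980927-89981226 (Eed, minus strand), chr6:47594981-47595280 (Ezh2, minus strand), chr4:128654452-128654751 (Phc2 start 1, plus strand) and chr4:128727321-128727620 (Phc2 start 3, plus strand). Capitals mark matches to the motifs described after the sequences.
Bmi1: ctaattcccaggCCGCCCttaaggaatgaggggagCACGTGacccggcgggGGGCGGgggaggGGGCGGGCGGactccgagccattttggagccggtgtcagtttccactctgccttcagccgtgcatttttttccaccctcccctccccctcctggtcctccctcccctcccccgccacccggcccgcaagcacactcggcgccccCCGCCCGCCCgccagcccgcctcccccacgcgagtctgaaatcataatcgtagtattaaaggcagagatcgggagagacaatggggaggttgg
Suz12: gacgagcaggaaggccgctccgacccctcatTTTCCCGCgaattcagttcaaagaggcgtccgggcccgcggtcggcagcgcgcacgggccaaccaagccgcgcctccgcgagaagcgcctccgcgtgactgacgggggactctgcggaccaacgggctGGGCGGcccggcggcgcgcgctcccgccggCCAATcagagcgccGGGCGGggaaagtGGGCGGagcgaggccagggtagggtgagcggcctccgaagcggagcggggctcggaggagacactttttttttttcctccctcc
Eed: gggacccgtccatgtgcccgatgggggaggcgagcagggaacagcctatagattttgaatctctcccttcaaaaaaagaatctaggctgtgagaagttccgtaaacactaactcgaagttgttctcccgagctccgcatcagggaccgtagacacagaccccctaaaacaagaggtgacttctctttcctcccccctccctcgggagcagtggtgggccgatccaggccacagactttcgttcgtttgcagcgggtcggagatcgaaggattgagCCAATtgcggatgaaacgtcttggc
Ezh2: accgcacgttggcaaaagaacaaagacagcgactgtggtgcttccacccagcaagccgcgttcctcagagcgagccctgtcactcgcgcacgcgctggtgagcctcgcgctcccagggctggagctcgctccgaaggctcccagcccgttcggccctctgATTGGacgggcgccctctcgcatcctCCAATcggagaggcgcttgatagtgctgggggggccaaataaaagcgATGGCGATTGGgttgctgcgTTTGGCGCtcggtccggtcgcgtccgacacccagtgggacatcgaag
Phc2 start 1: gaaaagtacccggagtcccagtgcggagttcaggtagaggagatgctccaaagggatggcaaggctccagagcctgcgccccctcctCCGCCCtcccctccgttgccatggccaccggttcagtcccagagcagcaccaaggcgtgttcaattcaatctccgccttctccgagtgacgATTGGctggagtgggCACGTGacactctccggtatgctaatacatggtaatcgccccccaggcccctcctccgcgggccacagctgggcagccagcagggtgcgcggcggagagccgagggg
Phc2 start 3: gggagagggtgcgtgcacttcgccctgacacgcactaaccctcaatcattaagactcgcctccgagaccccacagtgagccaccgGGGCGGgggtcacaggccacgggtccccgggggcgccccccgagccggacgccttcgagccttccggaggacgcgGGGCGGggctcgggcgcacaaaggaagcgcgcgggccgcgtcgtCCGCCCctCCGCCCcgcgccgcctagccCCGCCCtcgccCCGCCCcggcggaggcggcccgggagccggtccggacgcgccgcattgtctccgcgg

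Of the 11 member windows in RefSeq, 10 held more CG pairs than the median of 7 over all 32851 promoter windows of the same length. The count reached 45 at the third Phc2 start, 41 at Suz12 and 37 at Ring1, and was 2 at the second Phc2 start, which had no peak. The GC box GGGCGG, on either strand and counting overlapping matches, was found in 6 member windows, against 35.7% of all windows. It occurred 6 times in Bmi1 and 6 times at the third Phc2 start. CCAAT, the NF-Y motif, was found in 5 member windows, against 37.4% of all windows, and 3 times in Ezh2. The E-box CACGTG stood in Bmi1 and at the first Phc2 start, against 7.15% of all windows. Of the E2F sequences, TTTCCCGC occurred in Suz12, against 1.07% of all windows, and TTTGGCGC in Ezh2, against 0.514%. ATGGCG, part of the YY1 motif, was in Ring1 and in Ezh2, where it directly adjoins a CCAAT match on the other strand, against 8.93% of all windows. CCGGAAGT (ETS) and TGACGTCA (CRE) had no match in these windows and were in 3.89% and 1.79% of all windows. The window of Phc1, like that of Ezh1, held no match. These matches describe the letters alone.

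Among the 10 promoters, openness per kilobase of peak ranged in control MCAM-high cells between 16.5 CPM per kb at Ezh1 and 47.0 CPM per kb at Phc2. In control KIT-positive cells it ranged between 26.5 CPM per kb at Phc1 and 72.1 CPM per kb at Phc2. In later germ cells Ezh2 was the most open of the 10, at 87.0 CPM per kb, and Cbx2 the least, at 9.30 CPM per kb. Cbx2 also had the widest spread of group means, with a log2 ratio of the highest to the lowest of 2.13, and Rnf2 had the narrowest, 0.53.

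**Figure D1:**
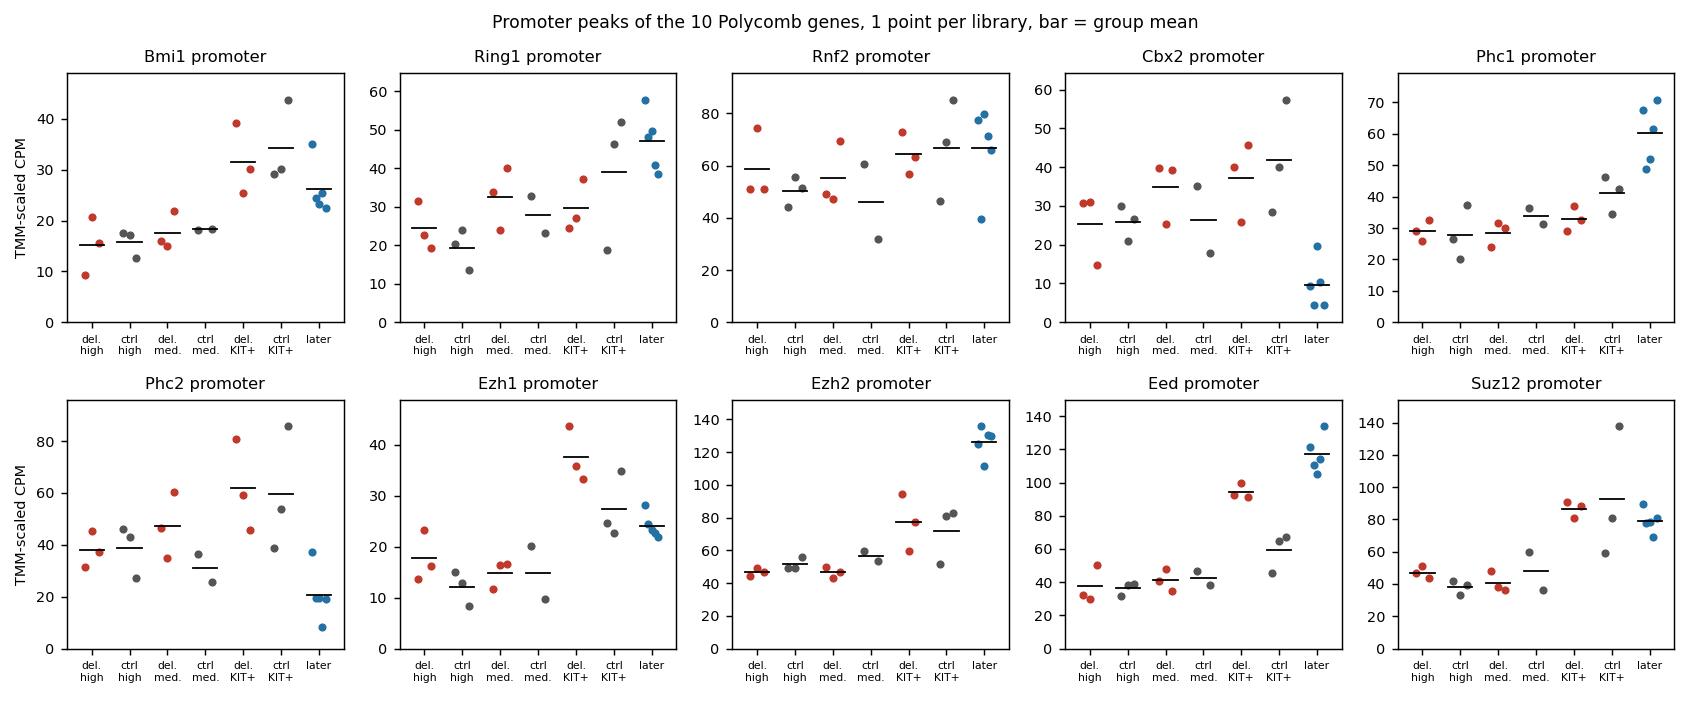
TMM-scaled CPM (y axis) of the promoter peak of each Polycomb gene in every library (points), grouped by TERT-deleted (del., red) or control (ctrl, grey) MCAM-high, MCAM-medium and KIT-positive spermatogonia and by later germ cells (blue); bars are group means. Bmi1, Ezh1, Eed and Suz12 sit higher in KIT-positive than in MCAM-high libraries in both genotypes, and Cbx2 is lowest in later germ cells, at 9.60 CPM.

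The first question was whether acute TERT deletion changed the chromatin of these genes. Deleted and control libraries were compared within each population with edgeR's quasi-likelihood test over 57289 peaks, with Benjamini-Hochberg adjustment and a threshold of 0.05. Of the 20 Polycomb peaks, 15 had enough counts to be tested: the 10 promoters and 5 others. None passed in MCAM-high cells (0 of 15, against 0.0489% of all peaks tested), in MCAM-medium cells (0 of 15, against 0.00873%), in KIT-positive cells (0 of 15, against 0.00349%) or in the mean over the 3 populations (0 of 15, against 0.124%). At an unadjusted p under 0.05 the count was 0, 0, 1 and 0 in that order, and DESeq2 also called 0 in each. With so few calls among all peaks, 0 of 15 does not set these genes apart.

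Across the 10 promoters the log2 fold change, deleted over control, ran between -0.16 and 0.51 in MCAM-high cells, between -0.29 and 0.59 in MCAM-medium cells and between -0.42 and 0.65 in KIT-positive cells, with standard errors of 0.24 to 0.39. For the mean over the populations it ran between -0.19 and 0.31, and over all 10 promoters the lowest bound of an approximate 95% interval was -0.51 and the highest, of another promoter, was 0.71. The 3 tested peaks with the smallest p in that mean were Phc2 peak 6 at the third start (log2 fold change 0.53 ± 0.27 SE, edgeR adjusted p = 0.909), Phc2 peak 3 (0.47 ± 0.25, adjusted p = 0.929) and the Ezh1 promoter (0.31 ± 0.21, adjusted p = 0.963).

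Eed, the subunit that binds methylated lysine 27, gave the lowest unadjusted p. Its promoter had 92.8, 99.5 and 91.2 CPM in deleted KIT-positive libraries, against 45.6, 64.7 and 67.4 CPM in control KIT-positive libraries. The groups do not overlap, yet the log2 fold change of 0.65 ± 0.24 SE (unadjusted p = 0.0093) had an adjusted p of 1 by edgeR over all peaks. In MCAM-high cells the Eed promoter had 32.3, 29.7 and 50.4 CPM in deleted libraries, against 31.9, 38.0 and 38.8 CPM in control libraries, a difference of 0.03 ± 0.25 SE in log2. The difference between these 2 deletion effects was 0.63 ± 0.35 SE on the log2 scale (edgeR adjusted p = 0.996), and 0 of the 15 Polycomb peaks passed that test of a difference, against 0% of all peaks. None had an unadjusted p under 0.05 there, and DESeq2 called 0.

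Ezh2, the main methyltransferase of dividing cells, did not overlap between deleted and control libraries within either undifferentiated population. It had 44.2, 49.05 and 46.5 CPM in deleted MCAM-high libraries, against 49.12, 49.13 and 56.0 CPM in control ones, and 49.7, 43.2 and 46.7 CPM in deleted MCAM-medium libraries, against 59.7 and 53.2 CPM in control ones. The log2 fold changes of -0.16 ± 0.24 SE and -0.29 ± 0.27 SE did not pass (edgeR adjusted p = 0.999 and 1), and the gap in MCAM-high cells lies between 49.05 and 49.12 CPM. Over all peaks, edgeR called 0.0489% in MCAM-high and 0.00873% in MCAM-medium cells. These shares count calls and not groups without overlap, whose share among all peaks is not given. With so few libraries, groups can also separate by chance. Other Polycomb peaks separated the other way from Ezh2. The Suz12 promoter was above all control MCAM-high libraries in each deleted one without passing (0.28 ± 0.26 SE in log2, edgeR adjusted p = 0.988). The untested Phc1 peak 1 lay above its controls in both undifferentiated populations, as did the untested Rnf2 peak 1 in MCAM-high cells. Phc2 peak 2 in MCAM-medium cells and Phc2 peaks 3 and 6 in KIT-positive cells also lay above their controls, without passing.

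**Figure D2:**
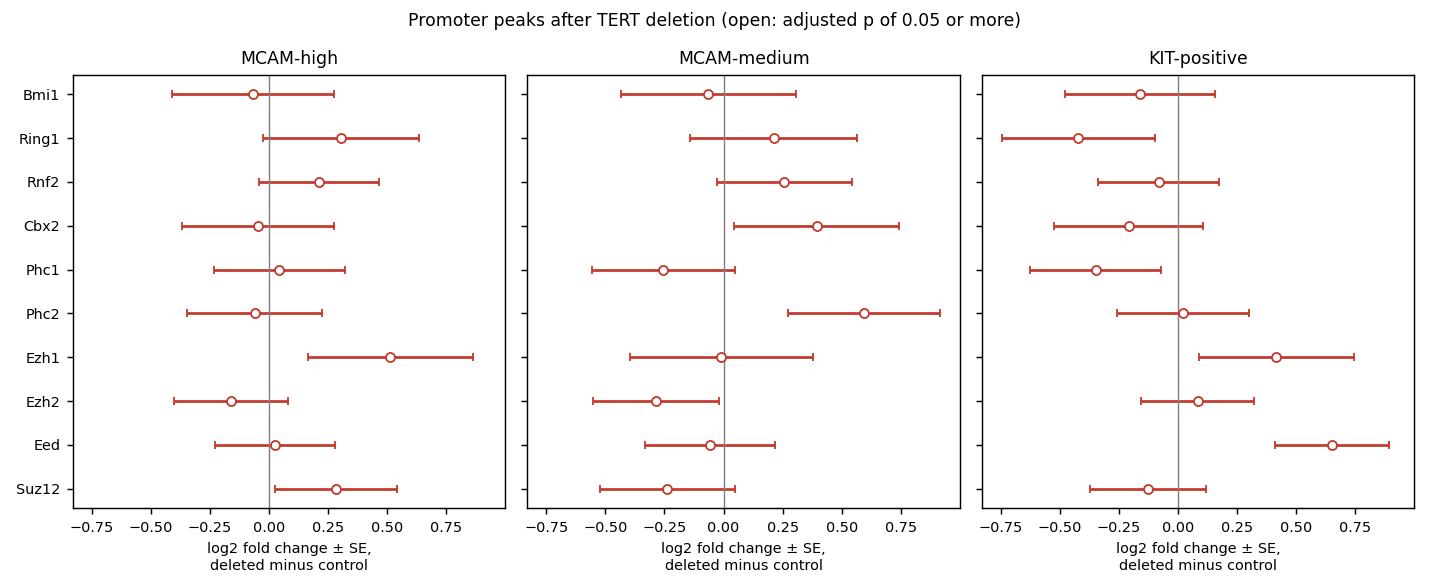
Log2 fold change, TERT-deleted minus control, of the 10 Polycomb promoter peaks in MCAM-high, MCAM-medium and KIT-positive spermatogonia (points, with bars of 1 SE from edgeR). Every point is open because none passed the test; the values lie between -0.42 and 0.65, the highest being Eed in KIT-positive cells.

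The second question was what happens at these genes as spermatogonia differentiate. KIT-positive cells were compared with MCAM-high cells, once in each genotype. These 2 comparisons share no library, but both come from 1 fit with a shared estimate of spread and are not fully independent. In control cells 5 of the 15 tested Polycomb peaks rose and none fell, where 15.8% of all peaks passed in either direction and 9.64% were higher. All 5 were promoters: Suz12, Ezh1, Bmi1, Ring1 and Eed. In deleted cells 5 rose and none fell, where 13.7% of all peaks passed and 9.39% were higher. These were Eed, Ezh1, Bmi1, Suz12 and Ezh2. Bmi1, Eed, Ezh1 and Suz12 were called in both genotypes. These shared calls depend, among other libraries, on 2 with high shares of even counts. Without control KIT-positive replicate 3 (73.9%) the control calls of Bmi1, Eed and Ezh1 were lost. Without deleted KIT-positive replicate 1 (70.5%) the deleted calls of Bmi1, Ezh1 and Suz12 were lost. The part of the even counts was not tested. Promoters as a class also moved upward, so the members were read against that class: 16.8% of the 11754 promoter peaks tested were called higher in control and 16.1% in deleted cells.

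In control cells all 10 Polycomb promoters had a positive log2 fold change, as did 63.4% of all promoter peaks. Their median was 0.69 against 0.24 over all promoter peaks, and they stayed positive under each of the 8 other settings tried. The 10 promoters were measured in the same libraries and are not independent. In deleted cells all 10 were positive, against 63% of all promoter peaks, with a median of 0.70 against 0.23. There Rnf2 and Phc1 turned negative when libraries were scaled by total counts without TMM or by loess offsets, and Rnf2 when the fit held the compared groups alone. The 5 tested peaks away from promoters gave no call in either genotype.

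Suz12, the scaffold of PRC2, gave the largest called change in control cells. Its promoter had 59.1, 80.9 and 138 CPM in control KIT-positive libraries, against 41.9, 32.9 and 39.3 CPM in control MCAM-high libraries. It had 90.9, 80.9 and 88.1 CPM in deleted KIT-positive libraries, against 46.8, 51.0 and 43.4 CPM in deleted MCAM-high libraries. All 6 KIT-positive values lie above all 6 MCAM-high values. In log2 the change was 1.28 ± 0.25 SE in control cells (edgeR adjusted p = 0.000332) and 0.87 ± 0.26 SE in deleted cells (adjusted p = 0.0175). The control call was kept when any 1 library was left out and under all 8 alternatives. The deleted call was lost without deleted MCAM-high replicate 1 or 3 or deleted KIT-positive replicate 1 (adjusted p up to 0.0762), or with total counts without TMM (adjusted p = 0.0568) or loess offsets (adjusted p = 0.17).

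The Eed promoter showed its larger change in deleted cells. With the KIT-positive and MCAM-high values already given, its log2 fold change was 1.32 ± 0.25 SE in deleted cells (edgeR adjusted p = 0.00022) and 0.70 ± 0.25 SE in control cells (adjusted p = 0.0437). The deleted call was kept without any 1 library and under all 8 alternatives, whereas the control call was kept in 1 of 6 leave-one-out fits and 3 of 8 alternatives. Leaving out any control MCAM-high library, or control KIT-positive replicate 2 or 3, ended it.

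Ezh1, the catalytic subunit known from non-dividing cells, rose in both genotypes. Its promoter had 43.7, 35.8 and 33.2 CPM in deleted KIT-positive libraries, against 13.6, 23.2 and 16.3 CPM in deleted MCAM-high libraries. In control libraries it had 24.7, 22.7 and 34.9 CPM in KIT-positive cells, against 15.1, 12.8 and 8.38 CPM in MCAM-high cells. Neither pair of groups overlaps. On the log2 scale the change was 1.06 ± 0.34 SE in deleted cells (edgeR adjusted p = 0.0288) and 1.15 ± 0.34 SE in control cells (adjusted p = 0.0149). The deleted call was lost without deleted MCAM-high replicate 1 or 3 or deleted KIT-positive replicate 1, and the control call without control MCAM-high replicate 3 or control KIT-positive replicate 3 (adjusted p up to 0.127 and 0.124). The deleted call was also lost with total counts without TMM (adjusted p = 0.0894).

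Ezh2 rose in deleted cells. It had 94.6, 59.3 and 77.3 CPM in deleted KIT-positive libraries, against the 44.2, 49.05 and 46.5 CPM of deleted MCAM-high libraries, which lie below them. In control KIT-positive libraries it had 51.6, 80.9 and 82.8 CPM, of which the lowest overlaps the control MCAM-high range. This was a log2 fold change of 0.71 ± 0.24 SE in deleted cells (edgeR adjusted p = 0.0423) and 0.47 ± 0.24 SE in control cells (adjusted p = 0.18). The deleted call was kept in 1 of 6 leave-one-out fits and 2 of 8 alternatives. The difference between these 2 changes was 0.25 ± 0.34 SE (adjusted p = 0.996), so the genotypes are not shown to differ at Ezh2.

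In PRC1, Bmi1, the RING partner known for stem cell self-renewal, rose in both genotypes. Its promoter had 39.1, 25.3 and 30.1 CPM in deleted KIT-positive libraries, against 9.36, 20.7 and 15.5 CPM in deleted MCAM-high libraries. In control libraries it had 29.2, 30.2 and 43.7 CPM in KIT-positive cells, against 17.5, 17.1 and 12.6 CPM in MCAM-high cells. Each KIT-positive library exceeded each MCAM-high library of its genotype. Its log2 fold change was 1.02 ± 0.34 SE in deleted cells (edgeR adjusted p = 0.0371) and 1.11 ± 0.32 SE in control cells (adjusted p = 0.013). The deleted call was lost without deleted MCAM-high replicate 1 or 3, without deleted KIT-positive replicate 1 or 3 (adjusted p up to 0.184), and under 4 of 8 alternatives. The control call was lost without control MCAM-high replicate 3 or control KIT-positive replicate 3 (adjusted p up to 0.117).

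Ring1, the paralog of Rnf2, rose in control cells. It had 18.7, 46.4 and 52.0 CPM in control KIT-positive libraries, against 20.3, 23.9 and 13.6 CPM in control MCAM-high libraries. Replicate 1 of the KIT-positive libraries lies inside the MCAM-high range. The log2 fold change was 0.99 ± 0.32 SE (adjusted p by edgeR = 0.0273), and the call was lost without control MCAM-high replicate 3 or control KIT-positive replicate 2 or 3 (adjusted p up to 0.238), and with some other settings, among them total counts without TMM (adjusted p = 0.0696) and the compared groups alone (adjusted p = 0.0653). In deleted cells Ring1 had 24.6, 27.2 and 37.1 CPM in KIT-positive libraries, against 31.5, 22.6 and 19.4 CPM in MCAM-high libraries, a log2 fold change of 0.27 ± 0.34 SE (adjusted p = 0.649). The difference between the genotypes was -0.73 ± 0.46 SE, deleted minus control (adjusted p = 0.996).

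The remaining PRC1 promoters passed in neither genotype. Rnf2, the main H2A ligase, averaged 64.3 ± 8.00 CPM in deleted KIT-positive, 58.8 ± 13.4 CPM in deleted MCAM-high, 66.8 ± 19.5 CPM in control KIT-positive and 50.3 ± 5.86 CPM in control MCAM-high libraries (SD, n = 3 each). Cbx2, Phc1 and Phc2 had log2 fold changes of 0.52 ± 0.33, 0.17 ± 0.29 and 0.69 ± 0.29 SE in deleted cells and of 0.69 ± 0.31, 0.56 ± 0.27 and 0.60 ± 0.28 SE in control cells (edgeR adjusted p of 0.104 or more).

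**Figure D3:**
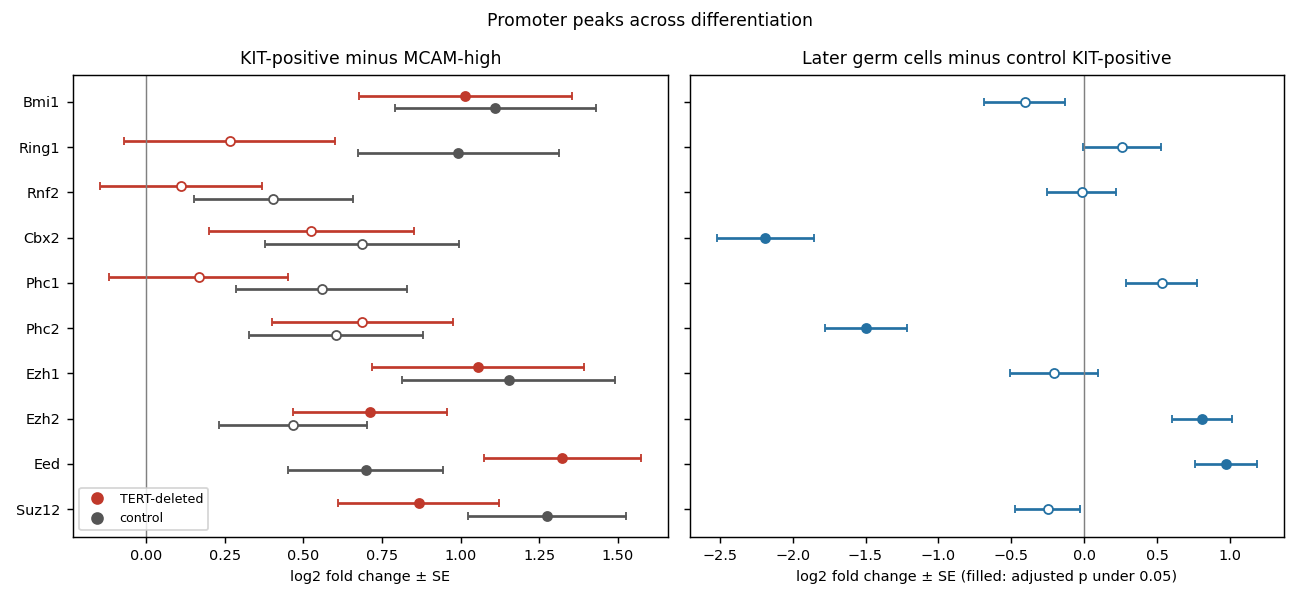
Log2 fold changes (points, bars of 1 SE from edgeR; filled where the adjusted p was under 0.05) of the 10 Polycomb promoters. Left: KIT-positive minus MCAM-high spermatogonia in TERT-deleted (red) and control (grey) cells, all positive, 5 filled in each genotype. Right: later germ cells minus control KIT-positive spermatogonia, with Ezh2 and Eed filled on the positive side and Phc2 and Cbx2 on the negative side.

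Fewer Polycomb peaks passed between KIT-positive and MCAM-medium cells. In control cells 1 of 15 peaks rose, the Suz12 promoter (0.94 ± 0.28 SE, edgeR adjusted p = 0.0263), where 9.32% of all peaks passed and 5.70% were higher. This call was lost without either control MCAM-medium library or control KIT-positive replicate 3 (adjusted p up to 0.312). In deleted cells 3 rose, where 6.87% of all peaks passed and 4.59% were higher. They were Ezh1 (1.30 ± 0.34 SE, adjusted p = 0.0125), Eed (1.17 ± 0.24, adjusted p = 0.00162) and Suz12 (1.05 ± 0.26, adjusted p = 0.00702). The Eed and Suz12 calls were kept without any 1 library and under all 8 alternatives, and that of Ezh1 was lost without deleted MCAM-medium replicate 1 or deleted KIT-positive replicate 1 (adjusted p up to 0.0863). The KIT-positive libraries serve in both the MCAM-high and the MCAM-medium comparisons, which are therefore not independent.

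No Polycomb peak passed between MCAM-medium and MCAM-high cells (0 of 15 by edgeR in deleted cells, against 0.0140% of all peaks, and 0 of 15 in control cells, against 0%). None had an unadjusted p under 0.05 in either genotype, and DESeq2 called 0. Eed, for example, had 40.5, 48.0 and 34.6 CPM in deleted MCAM-medium and 46.9 and 38.2 CPM in control MCAM-medium libraries, which overlap the MCAM-high values.

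**Figure D4:**
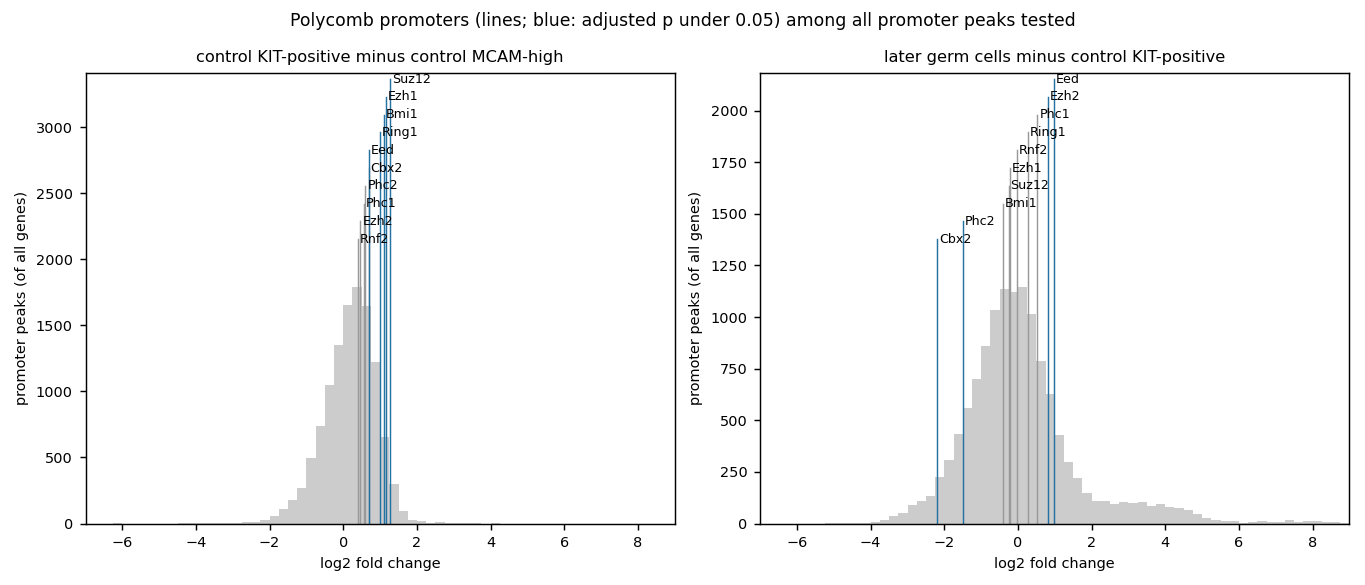
Number of promoter peaks of all genes (y axis, grey bars) by log2 fold change (x axis) for control KIT-positive minus control MCAM-high cells (left) and later germ cells minus control KIT-positive cells (right), with the 10 Polycomb promoters as vertical lines whose height separates the names (blue where the adjusted p was under 0.05). On the left the members lie between 0.40 and 1.28, right of the median of all promoters at 0.24; on the right they lie between -2.19 and 0.97.

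The third question was how the genes differ in cells past the spermatogonial stage. Later germ cells were fitted with the 8 control spermatogonial libraries, over 73134 peaks, of which 19 were Polycomb peaks. The later cells carry a different Tert allele from the controls, and cell stage and allele cannot be told apart in this comparison. Against control KIT-positive cells 9 of 19 peaks passed, where 52.0% of all peaks did. Of these 7 were higher (background 29.2%) and 2 lower (background 22.8%). The share of members called is thus close to that of all peaks, and the results lie in which members moved. Among promoters, Ezh2 and Eed rose and Cbx2 and Phc2 fell. Against control MCAM-high cells 14 of 19 passed, where 58.4% of all peaks did: 12 were higher (background 33.5%) and 2 lower (background 24.9%). The 2 comparisons share the later libraries. Rnf2 peaks 1 and 2 and Phc2 peaks 4 and 5 entered this fit only with the later libraries, where they are high. The higher counts above thus include calls whose direction the filter fixed. Of the 10 promoters, 2 were higher and 2 lower than in control KIT-positive cells (24.2% and 28.7% of all promoter peaks). Against control MCAM-high cells 7 were higher and 2 lower (36.8% and 26.6%).

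The PRC2 genes divided into 2 patterns. Ezh2 had 125, 136, 111, 131 and 129.6 CPM in later germ cells, all above the 51.6, 80.9 and 82.8 CPM of control KIT-positive cells, with a log2 fold change of 0.81 ± 0.21 SE (adjusted p by edgeR = 0.000922). Eed had 121, 110.8, 105, 114 and 134 CPM in later germ cells, also above every control KIT-positive library, and its log2 fold change was 0.97 ± 0.21 SE (adjusted p = 0.000139). Both calls were kept without any 1 library and under all 7 alternatives. Suz12 had 89.3, 77.6, 78.2, 68.9 and 80.7 CPM in later germ cells, inside the control KIT-positive range, a log2 fold change of -0.25 ± 0.22 SE (adjusted p = 0.349). Ezh1 had 28.2, 24.4, 23.3, 22.7 and 21.96 CPM in later germ cells, overlapping the control KIT-positive values, a log2 fold change of -0.21 ± 0.30 SE (adjusted p = 0.579). Against control MCAM-high cells all 4 were higher, with log2 fold changes of 1.67 ± 0.22 SE for Eed, 1.27 ± 0.21 for Ezh2, 1.03 ± 0.23 for Suz12 and 0.95 ± 0.31 for Ezh1 (edgeR adjusted p = 2.22e-09, 4.52e-07, 0.000139 and 0.00721). The Ezh1 call was lost without control MCAM-high replicate 3 (adjusted p = 0.0645).

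In PRC1 the chromodomain gene Cbx2 fell. Its promoter had 9.28, 4.38, 19.6, 10.4 and 4.39 CPM in later germ cells, against 28.4, 39.9 and 57.3 CPM in control KIT-positive cells. All 5 later libraries lie below all 3 KIT-positive ones, with a log2 fold change of -2.19 ± 0.33 SE (adjusted p by edgeR = 2.23e-07). Against control MCAM-high cells the log2 fold change was -1.49 ± 0.33 SE (adjusted p = 0.00012). Both calls were kept without any 1 library and under all 7 alternatives.

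The main Phc2 promoter fell as well. It had 37.1, 19.4, 19.6, 8.45 and 19.2 CPM in later germ cells, against 38.9, 54.0 and 85.7 CPM in control KIT-positive cells, which lie above them. The log2 fold change was -1.50 ± 0.28 SE against control KIT-positive cells (edgeR adjusted p = 1.37e-05) and -0.89 ± 0.28 SE against control MCAM-high cells (adjusted p = 0.00536). The second of these was lost with DESeq2 (adjusted p = 0.0729). Peak 6, over the third Phc2 start, had 8.93, 14.4, 9.02, 0 and 8.23 CPM in later germ cells, against 4.49, 10.8 and 14.2 CPM in control KIT-positive cells, a log2 fold change of -0.29 ± 0.50 SE (adjusted p = 0.65). The first start held 75.3 ± 16.1% of the counts of these 2 starts in later germ cells (SD, n = 5), against 86.3 ± 3.19% in control KIT-positive cells (SD, n = 3), and the ranges of 57.4 to 100% and 83.3 to 89.7% overlap. No peak covered the second start.

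The other PRC1 promoters did not pass against control KIT-positive cells. Phc1 had 67.7, 48.8, 51.9, 61.7 and 70.8 CPM in later germ cells, against 46.4, 34.5 and 42.6 CPM in control KIT-positive cells, and although these do not overlap the log2 fold change of 0.53 ± 0.24 SE had an edgeR adjusted p of 0.0607. It passed under 4 of 7 alternatives, with DESeq2 (0.73, adjusted p = 0.0043), DESeq2's size factors (adjusted p = 0.00883), loess offsets (adjusted p = 0.0137) and all 22 libraries in the fit (adjusted p = 0.0377). Bmi1, Ring1 and Rnf2 had log2 fold changes of -0.41 ± 0.28, 0.26 ± 0.27 and -0.02 ± 0.24 SE (adjusted p of 0.213, 0.431 and 0.958). Against control MCAM-high cells Ring1 (1.25 ± 0.27 SE, adjusted p = 9.52e-05), Phc1 (1.10 ± 0.24, adjusted p = 9.72e-05) and Bmi1 (0.71 ± 0.28, adjusted p = 0.0285) rose. The Bmi1 call was lost without control MCAM-high replicate 2 or 3 or later replicate 1 (adjusted p up to 0.135), with total counts without TMM (adjusted p = 0.112) and with the compared groups alone (adjusted p = 0.0693).

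Peaks inside the genes, away from the main promoter, gave 5 of the 7 higher calls in later germ cells. Of these 5, Rnf2 peaks 1 and 2 and Phc2 peak 5 were below the count filter in the fit of spermatogonia alone and entered this fit with the later libraries, where they are high. Their direction was thus fixed by the filter, and their values are given as a description. The intragenic Bmi1 peak 2, at chr2:18680924-18681462 and 4175 bp downstream of the start, had 44.0, 40.7, 26.3, 37.0 and 33.5 CPM in later germ cells, against 12.7, 6.47 and 10.6 CPM in control KIT-positive cells. Its log2 fold change was 1.82 ± 0.34 SE (adjusted p by edgeR = 1.02e-05), whereas the Bmi1 promoter did not pass in that comparison. All 17 spermatogonial libraries, deleted ones included, stayed at or below 20.2 CPM.

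Rnf2 had 2 neighbouring peaks 25978 and 25289 bp downstream of the start that were nearly closed in control spermatogonia. Peak 1 (chr1:151474831-151475196) had 7.90, 14.4, 9.02, 8.45 and 7.69 CPM in later germ cells, against 2.99, 0 and 2.36 CPM in control KIT-positive cells. It had 0 counts in all 3 control MCAM-high libraries. Its log2 fold change against control KIT-positive cells was 2.22 ± 0.72 SE. The edgeR adjusted p of 0.00833, lost with loess offsets (adjusted p = 0.0542), is given as a description, since the filter fixed the direction of peak 1. Against control MCAM-high cells, with 3 counts over the group as the floor, it was at least 18.5-fold higher (85 against 0 counts). Peak 2 (chr1:151475466-151475938) had 95 counts in later germ cells and 2 in control KIT-positive cells, a ratio of 19.8 after scaling to depth, with an exact 95% interval of 5.34 to 166 that covers counting error only. Its log2 fold change of 4.13 became 7.28 without control KIT-positive replicate 2, which held both KIT-positive counts, and against control MCAM-high cells 4.92 became 7.21 without replicate 1, so the size is poorly bounded. Peak 1 had 3.403, 2.58 and 1.55 CPM in deleted MCAM-high libraries, against 0 in the control ones, so these groups do not overlap, but every one of these values is near the 3-count floor. Peak 2 reached 3.87 CPM in a deleted MCAM-high and 6.86 CPM in a deleted MCAM-medium library, below the 8.14 CPM of the lowest later library. Both peaks were too low in spermatogonia to be tested for deletion.

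Phc2 had 2 higher intragenic peaks. Peak 3 (chr4:128711261-128712139) had 25.4, 22.5, 12.8, 13.6 and 20.9 CPM in later germ cells, against 9.72, 8.63 and 8.28 CPM in control KIT-positive cells. The log2 fold change was 1.10 ± 0.39 SE (adjusted p by edgeR = 0.0155), lost without control KIT-positive replicate 3 (adjusted p = 0.0731), and it did not pass against control MCAM-high cells (0.42 ± 0.34 SE, adjusted p = 0.293). Peak 5 (chr4:128716082-128716282) had 6.87, 5.63, 3.76, 6.50 and 6.04 CPM in later germ cells. It had 55 counts there and 2 in control KIT-positive cells, a ratio of 11.5 with an exact 95% interval of 3.03 to 97.2. Peak 5 also reached 6.779 CPM in a deleted MCAM-medium library, inside the range of the later libraries. In each of the other spermatogonial groups the highest value of peak 5 lay below that range. Its edgeR adjusted p of 0.00799 is given as a description, since the filter fixed its direction. The call was lost without control KIT-positive replicate 1 or 3 (adjusted p up to 0.0685) or with loess offsets (adjusted p = 0.0893). The log2 fold change of 3.27 became 6.46 without control KIT-positive replicate 2, which held both KIT-positive counts. Against control MCAM-high cells both peak 5 and the neighbouring peak 4, which entered the fit in the same way, were higher (adjusted p = 0.000163 and 0.0215), that of peak 4 being lost without control MCAM-high replicate 2 (adjusted p = 0.0716) or with loess offsets (adjusted p = 0.285). Phc1 peak 1 was the only Polycomb peak below the count filter in every fit, with 0 to 5.49 CPM over all libraries.

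**Figure D5:**
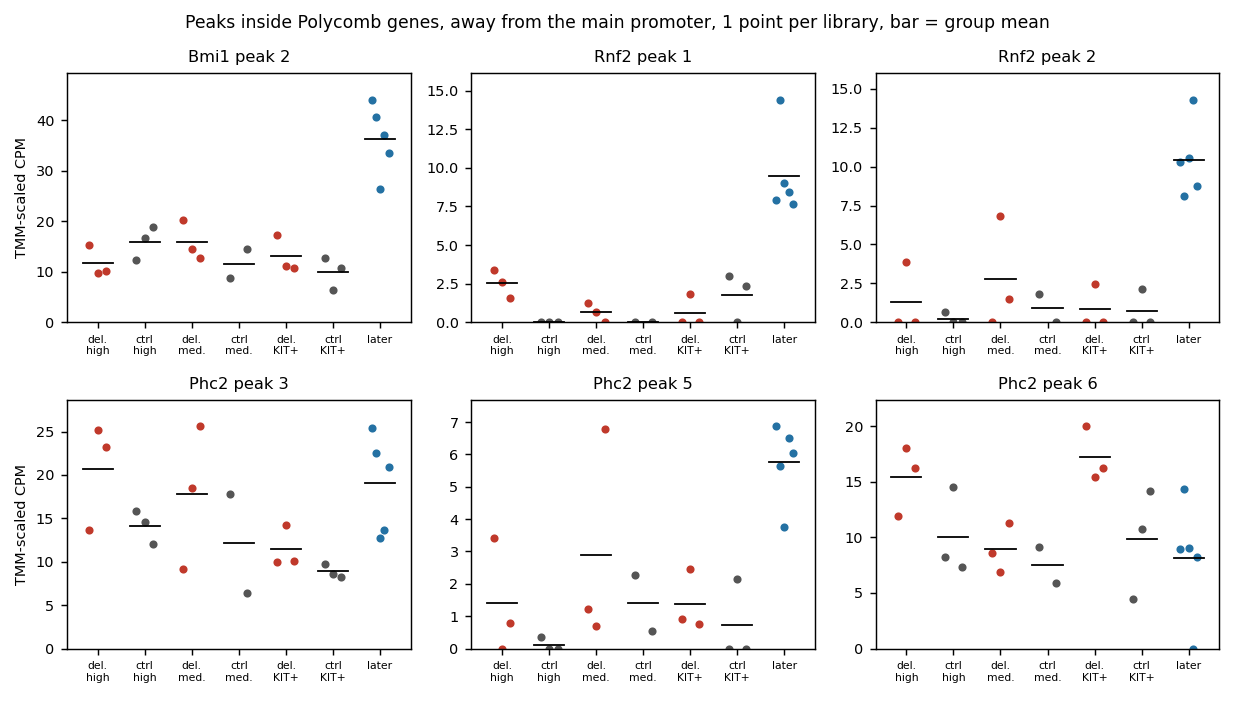
TMM-scaled CPM (y axis) of 6 peaks inside Bmi1, Rnf2 and Phc2 in every library (points) by group, labelled as TERT-deleted (del., red) or control (ctrl, grey) MCAM-high, MCAM-medium and KIT-positive spermatogonia, and later germ cells (blue); bars are group means. Bmi1 peak 2 and Rnf2 peaks 1 and 2 are highest in later germ cells, whereas Phc2 peak 6, at the third start, overlaps between groups.

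Taking the promoters by the order of their group means, the KIT-positive groups were the 2 highest for Bmi1, Suz12, Ezh1, Cbx2 and Phc2. Later germ cells were highest for Ring1, Ezh2, Eed and Phc1. The neighbours in this order often overlap: the Bmi1 promoter averaged 31.5 ± 6.99 CPM in deleted and 34.4 ± 8.13 CPM in control KIT-positive libraries (SD, n = 3 each) and 26.1 ± 5.10 CPM in later germ cells (SD, n = 5). The Eed promoter averaged 37.5 ± 11.3 CPM in deleted MCAM-high, 41.0 ± 6.69 CPM in deleted MCAM-medium and 94.5 ± 4.40 CPM in deleted KIT-positive libraries (SD, n = 3 each) and 117 ± 11.1 CPM in later germ cells (SD, n = 5).

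The promoter peaks most like Cbx2 across the 22 libraries were those of Marcksl1 (Pearson r = 0.948), St6galnac4 (r = 0.918) and Btg2 (r = 0.901), out of 12782 candidates and on log2(CPM + 1). These r values join germ cell stages that stand apart. Within the 17 spermatogonial libraries they were 0.858, 0.717 and 0.725. Marcksl1 averaged 10.7 CPM in later germ cells and 38.8 CPM in control KIT-positive cells, against 9.60 and 41.9 CPM for Cbx2.

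Of 38 other Polycomb genes, 36 had a peak over the promoter window or within 1 kb of a gene end that was tested, and Aebp2 and Bcor had none. None passed for TERT deletion in any population. Between KIT-positive and MCAM-high cells 12 rose and 0 fell in deleted cells, with a median log2 fold change of 0.63, and 13 rose and 0 fell in control cells, with a median of 0.57. Over all promoter peaks 16.1% were higher in deleted and 16.8% in control cells, with medians of 0.23 and 0.24. Cbx8, a chromodomain gene that lies beside Cbx2 on chromosome 11, and Rybp, a subunit of variant PRC1, were among the 3 with the smallest adjusted p in control cells. Cbx8 averaged 108 ± 24.5 CPM in control KIT-positive and 41.2 ± 11.3 CPM in control MCAM-high libraries (SD, n = 3 each), a change of 1.36 ± 0.25 SE in log2 (adjusted p = 0.000167 by edgeR). Rybp averaged 50.6 ± 12.5 CPM in control KIT-positive and 18.5 ± 2.36 CPM in control MCAM-high libraries (SD, n = 3 each; log2 fold change 1.44 ± 0.29 SE, adjusted p = 0.000421).

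In later germ cells against control KIT-positive cells 3 of these 36 rose and 16 fell, with a median log2 fold change of -0.35. Over all 12735 promoter peaks 24.2% were higher and 28.7% lower, with a median of -0.10. By class, 6 of 9 PRC2 genes and 7 of 21 PRC1 genes fell. Genes on the X chromosome were not set apart in these counts, and the part of X location was not tested. The 3 that rose were Pcgf6, a RING partner of germ-line repressing PRC1 (56.0 ± 12.9 CPM in later and 28.4 ± 12.9 CPM in control KIT-positive libraries, SD, n = 5 and n = 3; log2 fold change 1.02 ± 0.27 SE, edgeR adjusted p = 0.0016), the lysine 27 demethylase Kdm6b (1.67 ± 0.46 SE, adjusted p = 0.00185) and Cbx7 (0.99 ± 0.31 SE, adjusted p = 0.00624). Among those that fell with the smallest adjusted p were Auts2, an activating PRC1 subunit (12.1 ± 4.91 CPM in later and 92.3 ± 25.1 CPM in control KIT-positive libraries, SD, n = 5 and n = 3; log2 fold change -2.88 ± 0.25 SE, adjusted p = 1.76e-14) and the demethylase Kdm6a on the X chromosome (-1.78 ± 0.24 SE, adjusted p = 7.38e-09). Cbx8 did not pass (-0.26 ± 0.21 SE, adjusted p = 0.313).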

How the data were processed

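The authors deposited 1 table of raw read counts, not normalized, for 96049 peaks in 22 libraries; per the file headers each peak has a chromosome and its bounds. The submitters' processing notes list FastQC, Bowtie2, SAMtools and Picard, and the builds mm10, GRCm38 and hg19 with no role for any. Not given in the sources used here are the peak caller, the counting tool, any shift of reads for Tn5 and any removal of duplicates. Even numbers made up 48.8% to 73.9% of a library's nonzero counts.

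Genes and promoter windows came from RefSeq tables of GRCm38.p6, and the promoter peak was the peak over the window with the highest mean count. Members, gene lists and tests were chosen with earlier results of these data known. By the rule for naming, all 10 members were described. Of their other peaks, the rule took per gene the one with the smallest adjusted p among those passing, and the 3 smallest p after deletion. It also took the 3 other Polycomb genes with the smallest adjusted p in each direction, of which 1 gene is not reported here, and the 3 promoters most like the most variable member. Other member peaks that passed in later germ cells, Phc1 peak 1, and Cbx8 in that comparison were named after their values were seen. The tool for counts was edgeR 4.0.16 in R 4.3.3 (quasi-likelihood F test, TMM, filterByExpr by group, Benjamini-Hochberg adjustment over all peaks, threshold 0.05). The fits held 17 spermatogonial libraries in 6 groups (11 residual degrees of freedom), or 13 heterozygous libraries in 4 groups (9 residual degrees of freedom). Standard errors were the fold change in log2 over the root of the F statistic. Displayed CPM values were scaled by TMM over all 22 libraries. A floor of 3 counts corresponds to 0.893 to 3.25 CPM, depending on the library. Floors and intervals cover counting error only. The fit was tested on simulated counts. Alternatives were other scalings, no filter, DESeq2 1.42.0, other sets of libraries, a replicate block, other windows and leaving out each library.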

Additional observations from a re-analysis of the deposited data

Results flagged for a closer look

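In later germ cells, at 2 of the 20 Polycomb peaks 1 library, not the same one, stood far above the other 4. This was judged by its gap to the nearest library as a share of the whole range. Chance alone flags about 1 group in 20 by this measure when its libraries are of 1 kind, whereas these carry labels of 2 cell types. At the Bmi1 promoter the gap was 0.775 of the range: later replicate 1 had 35.0 CPM and the others 22.5 to 25.3 CPM. At Rnf2 peak 1 the gap was 0.801 of the range: later replicate 2 had 14.4 CPM and the others 7.69 to 9.02 CPM. The Bmi1 promoter call against control MCAM-high cells was lost without later replicate 1.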

How the results depend on the processing

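The 0 calls for TERT deletion, for the difference between populations and for MCAM-medium against MCAM-high cells stayed at 0 under all alternatives and with each library left out, and no called value changed sign under any of them. The counts for KIT-positive cells were less steady. In deleted cells the 5 calls against MCAM-high cells became 1 with total counts in place of TMM and 3 with loess offsets, with no filter on low counts, with the replicate block or with the compared groups alone, and ran between 1 and 5 with each library left out. Of the promoters, 4 were called with DESeq2's size factors. In control cells the 5 calls became 3 with total counts, with the replicate block or with the compared groups alone, and ran between 1 and 6. Of the promoters, 4 were called with loess offsets and 4 with no filter on low counts. The 1 call against MCAM-medium cells in control cells became 0 with loess offsets, the replicate block or the compared groups alone, and ran between 0 and 2. With the block the Ring1 and Eed calls of control cells were lost (adjusted p = 0.0669 and 0.0842 by edgeR), and the Bmi1 and Ezh2 calls of deleted cells (0.0695 and 0.0777). The cause was not tested.

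Replicate numbers did not pair the libraries: the correlation of deviations from group means was -0.364 to 0.0517 over 16 pairs of 1 genotype and number, and -0.0727 to 0.0798 over 8 pairs of 1 population and number. Gene bodies alone held the same 20 peaks, and summing the peaks within 1 kb of a gene's main start changed nothing, since no main start had more than 1; the third start of Phc2, which has peaks 6 and 7, was not summed. Among all peaks, the share of calls that were higher moved with scaling: without TMM it was 46.3% in place of 68.4% for deleted KIT-positive minus MCAM-high cells (median log2 fold change -0.28 in place of -0.05) and 44.8% in place of 61.2% for control cells (-0.22 in place of -0.05). Against MCAM-medium cells it was 44.4% in place of 66.9% (deleted; loess offsets 55.6%) and 43.8% in place of 61.2% (control). For later against control KIT-positive cells the median was 0.31 with DESeq2's size factors, in place of 0.12, and -0.05 with loess offsets. Depth limits the peaks below about 3 CPM, where 1 library decides the fold.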
